A study of Mus musculus with 11 samples.

Results

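Multicopy gene families, 7 in all, that arose by repeated duplication and are mostly active in germ cells were followed in mouse embryonic stem (ES) cells kept in 3 media. They are the Rhox homeobox genes, the Xlr genes, the Magea melanoma antigen genes, the ferritin-like Fthl17 genes, the Ctag2 cancer-testis antigen genes, the Nlrp4 genes and the Tex13 genes. A gene was taken when its current mouse symbol began with any of these 7 stems followed by a digit, a letter or nothing. Each probe's RefSeq accession had first been matched to a gene table. No measured value entered the choice of genes within a family, but the families were chosen with earlier results of these data known. The gene table held 89 such symbols, pseudogenes included, and 50 of them had a probe on the array, of 20964 genes with a named probe. Of the 50, 42 were measured well enough to test, of 16279 genes tested in all. Most of these genes lie on the X chromosome, which holds 44 of the 50; 4 lie on chromosome 7, 1 on chromosome 9 and 1 on chromosome 13.

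These families belong to the cancer-testis and germline gene classes, which are active in spermatogonia, oocytes or the early embryo and silent in most body cells. In somatic cells and in ES cells many of them are kept silent by DNA methylation at their promoters, laid down by Dnmt3a and Dnmt3b with their cofactor Dnmt3l and copied at each division by Dnmt1 with Uhrf1. Histone methylation by Setdb1 and a variant Polycomb complex that holds Pcgf6, Mga, Max and E2f6 also silence germline genes in ES cells. Because the copies of a family are close in sequence, a probe designed for 1 copy may also bind another, and probe sequences were not used here, so the signals below are named by the gene each probe was designed for and may hold RNA of its nearest copies.

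The study compared unsorted ES cells of the 129/Ola strain after at least 3 passages in 2i/LIF, KOSR/LIF or serum/LIF, with no further treatment given in the labels. 2i is a serum-free medium with inhibitors of the Mek and Gsk3 kinases, KOSR is a knockout serum replacement, serum/LIF is the standard serum-containing medium, and LIF, the cytokine that sustains mouse ES cells, was in all 3. There were 5 arrays for 2i/LIF, 3 for KOSR/LIF and 3 for serum/LIF, from 3 ES cell lines, E14, HVJu5.1 and HVJu9.3, each of which is a single clone. For the 2i/LIF replicates 1 to 4 the sample titles and the source names give different lines, so arrays are compared by medium only. By either, HVJu5.1 and HVJu9.3 each gave more than 1 of the 5 2i/LIF arrays. Because every sample is a bulk culture, fewer cells of a type and less RNA per cell cannot be told apart.

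Total RNA was labelled with Cy3 and hybridised to 1-colour Agilent arrays. The level of a gene is given as log2 of the background-subtracted signal relative to the 75th percentile of that array, so 0 is the signal that 3 in 4 probes fall below, and levels are compared between arrays and not between genes. The KOSR/LIF replicate 3 array was dim, with a 75th percentile of 65.3 intensity units and 43.7% of probes well above background, against 176 to 538 units and 53.7% to 72.6% on the other 10 arrays. The ES cell markers examined, 12 of 12, were measurable, with a summed linear level of 713 to 999 on 2i/LIF arrays, 609 to 759 on KOSR/LIF arrays and 779 to 1077 on serum/LIF arrays. In the table of normalised values that the authors deposited, the columns named for the 2i/LIF replicates 1 and 4 lay closer to each other's scanner signals than to their own, as did the columns of the KOSR/LIF replicates 1 and 2, while the KOSR/LIF replicate 3 column correlated at most 0.974 with any array. These mismatches stay within a medium. The scanner signals of the 11 arrays were used for all values below, and which array of a pair carries the right replicate number cannot be told.

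Members of these families were called higher against serum/LIF in both serum-free media, at shares well above those of all genes. Against serum/LIF, 26 of the 42 tested members were higher and 3 lower in 2i/LIF by limma with Benjamini-Hochberg adjustment over all 16279 genes at 0.05, where 16.7% of all genes were called, 6.74% higher and 9.98% lower. In KOSR/LIF 21 members were higher and 0 lower, where 4.57% of all genes were called, 2.37% higher and 2.21% lower; at an unadjusted p under 0.05 the counts were 33 higher and 0 lower, against 1505 higher and 1536 lower of the 16279 genes. The median log2 change of the 42 members was 2.73 in 2i/LIF and 2.74 in KOSR/LIF, and that of all genes tested was 0.026 and -0.034. All 2i/LIF arrays lay above all serum/LIF arrays for 28 members and below them for 3, against 11.7% and 14% of all genes. All KOSR/LIF arrays lay above all serum/LIF arrays for 30 members and below them for 0, against 12.4% and 16.0% of all genes. The 2 comparisons use the same 3 serum/LIF arrays, so their calls are not independent. With any 1 array left out, 23 to 30 members were higher in 2i/LIF, while the KOSR/LIF count moved between 9 without serum/LIF replicate 1 and 23, with 10 without serum/LIF replicate 2 and 12 without KOSR/LIF replicate 1. With normexp background correction the medians were 1.06 in 2i/LIF and 1.09 in KOSR/LIF, with 21 and 14 members higher.

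A filter on dim probes lets in a gene that is silent in one medium only when it is bright in another, so the 16 members well above background on all 11 arrays were also counted alone. Of these 16, 5 were higher and 2 lower in 2i/LIF than with serum, or 31.2% and 12.5%, against 5.81% and 8.02% of the 11490 genes measured on every array. In KOSR/LIF 7 of the 16 were higher and 0 lower, against 1.64% and 1.81% of those genes. Rhox2e and Rhox2h, close copies whose results may not be separate observations, were among those higher in both media. The arrays were scanned on 3 days, and scan day 1 held 2 arrays of each of the 3 media. Within that day alone 22 members were higher and 1 lower in 2i/LIF than with serum. Of all 16279 genes, 2379 were called there in either direction. In KOSR/LIF 21 members were higher and 0 lower than in serum/LIF, where 685 of all genes were called. With 2 arrays per medium these counts are imprecise. Scan day 3 held 2 arrays of 2i/LIF and 1 of serum/LIF, too few for calls to be read from it, and there the median log2 change of the 42 members was 2.76, with 39 positive.

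**Figure D1:**
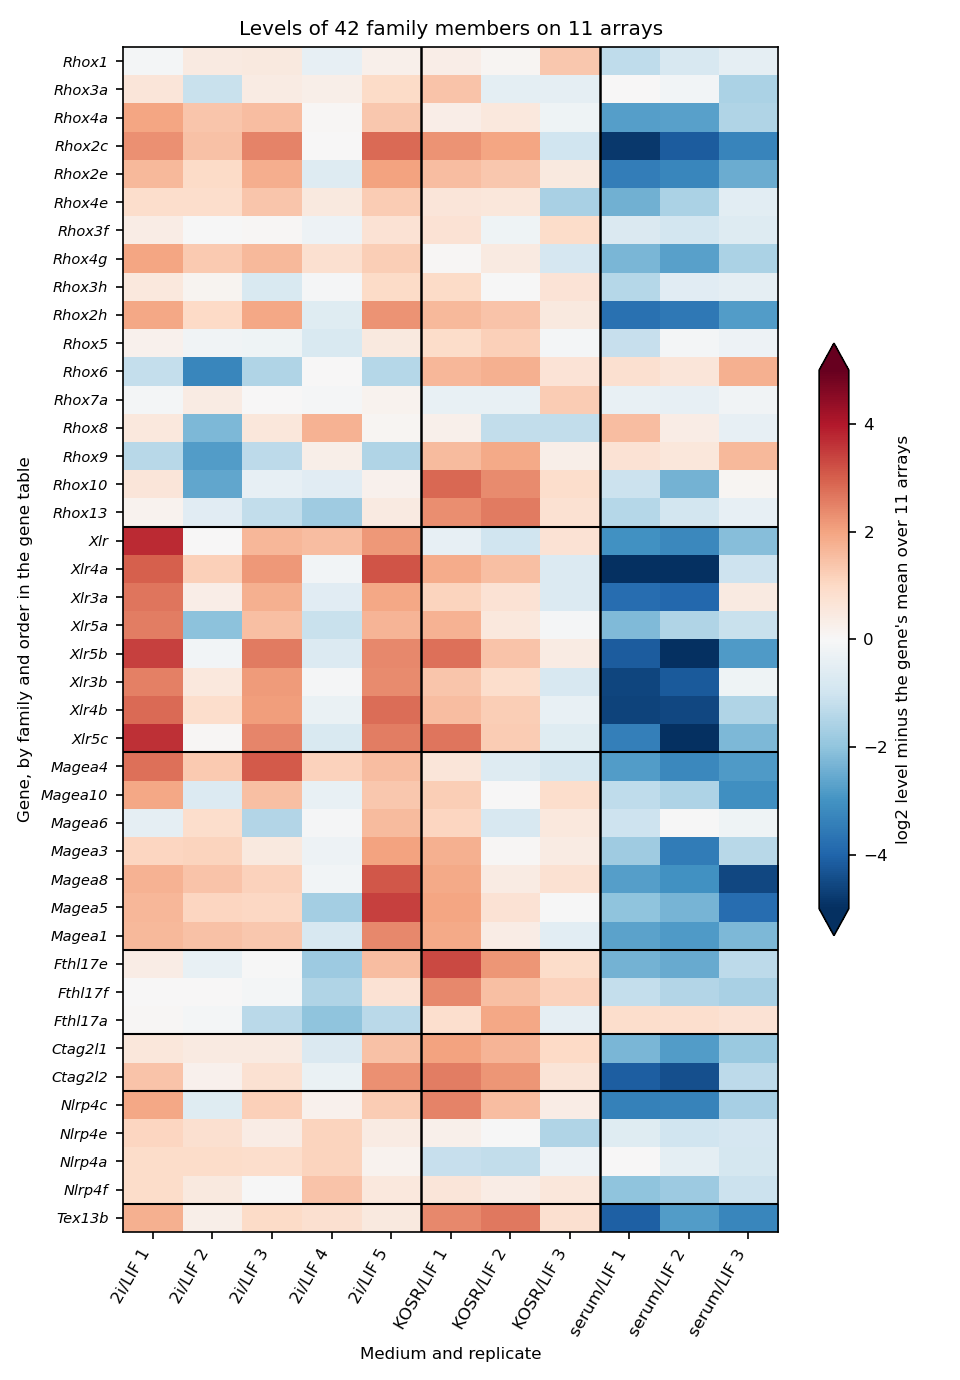
Log2 level of each of the 42 tested members on each array, as the difference from the mean of that gene over the 11 arrays (colour scale from -5 to 5, red high and blue low), with the 5 2i/LIF arrays on the left, then 3 KOSR/LIF and 3 serum/LIF arrays, and genes grouped by family. Most members are low on the serum/LIF arrays and high on both others, while Rhox6 and Rhox9 are low on the 2i/LIF arrays.

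**Figure D2:**
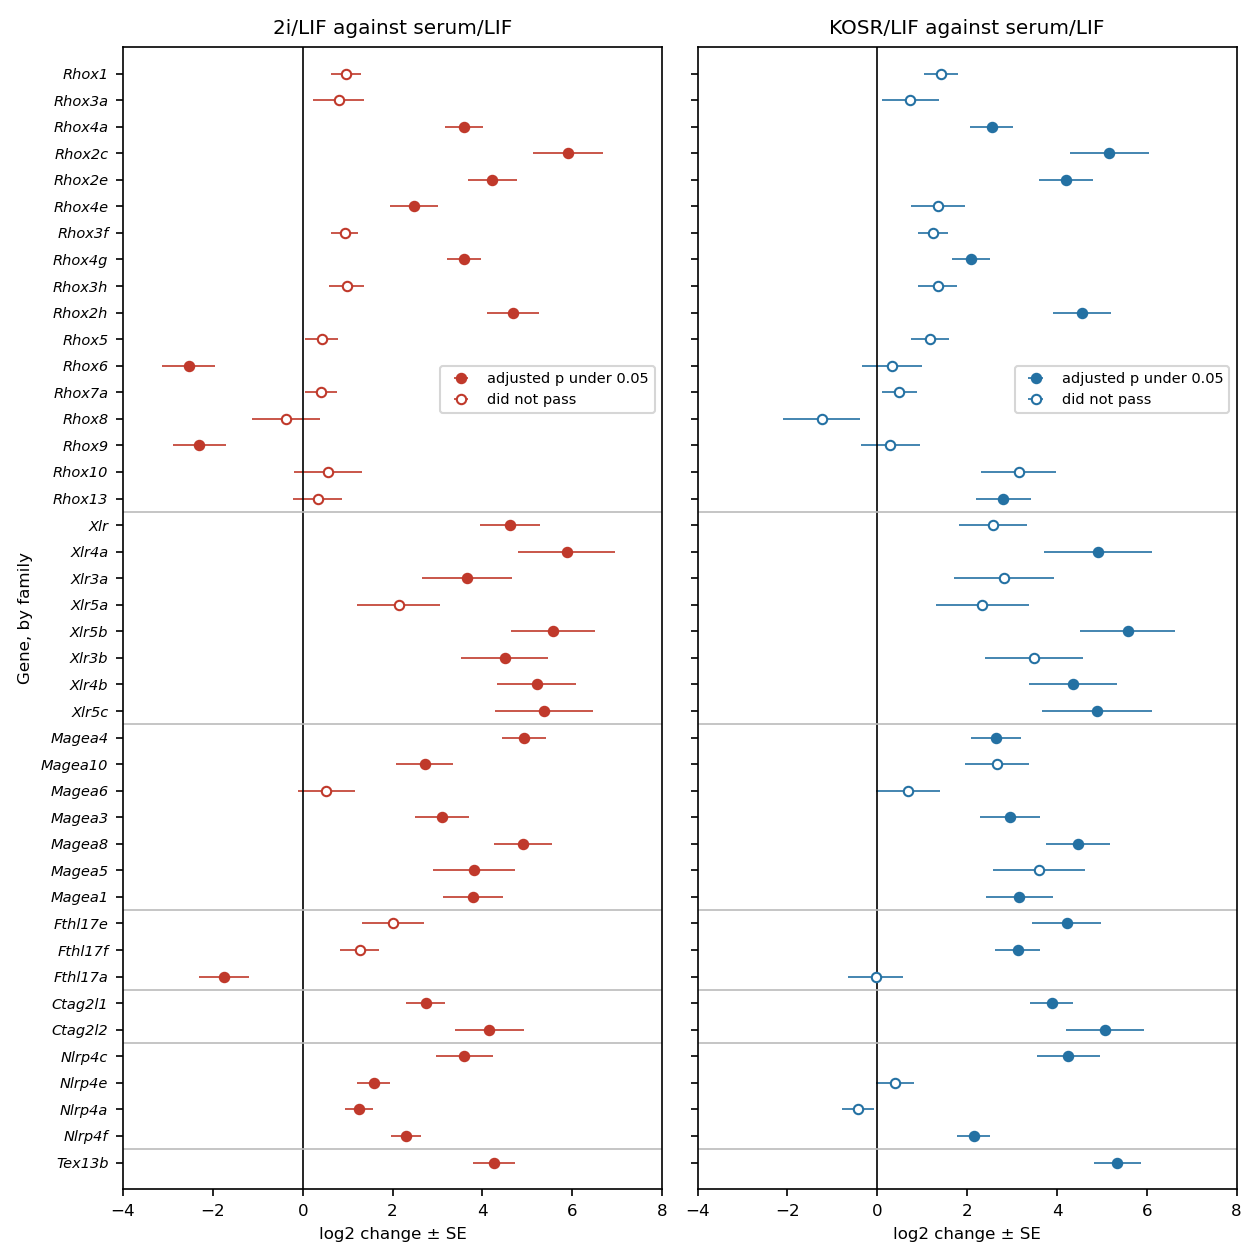
Log2 change of each tested member against serum/LIF, in 2i/LIF on the left and in KOSR/LIF on the right, with bars for 1 SE. Filled points passed an adjusted p of 0.05 in limma, 26 higher and 3 lower on the left and 21 higher and 0 lower on the right.

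The promoters of 38 of the 42 tested members, 39 windows in all, were found in a RefSeq table of the GRCm38.p6 build and are given here because promoter CpG sites are where DNA methylation acts on these genes. The 250 bases before the transcription start held a median of 4 CpG sites (range 0 to 14), against 6 (quartiles 2 and 16, highest 56) over all 32851 promoters and 5 over X-linked promoters outside the families. None of the members' promoters is above the third quartile of all promoters in CpG sites. The E-box CACGTG, which reads alike on both strands and is bound by complexes of Max with Mga or Myc, occurred in 4 of 39 windows (10.3%), against 6.02% of all promoters. These were the windows of Rhox4e and Rhox4g and of Ctag2l1 and Ctag2l2, each a pair of close copies, so they are not separate sequences. TCCCGC, a core of E2f sites, occurred on either strand in 2 of 39 (5.13%), against 16.9%. Most promoters within a family differed widely over this window, with a median identity of 46.3% over 137 pairs of members, but 7 pairs shared 90% or more of their bases. Rhox3a and Rhox3h were identical, and identity was 99.2% for Rhox2c and Rhox2e, 95.2% for Rhox2h with either of them, 93.0% for Xlr4a and Xlr4b, 93.2% for Ctag2l1 and Ctag2l2 and 92.3% for Rhox4e and Rhox4g. The windows of 7 members on which the results below turn are printed 5′ to 3′ on the gene's strand, with CpG sites and the E-box in capitals. The Rhox2h window is chrX:37673278-37673527 on the minus strand, Rhox4g chrX:37651328-37651577 minus, Rhox13 chrX:38120590-38120839 plus, Xlr4b chrX:73214083-73214332 plus, Magea8 chrX:154995851-154996100 minus, Ctag2l1 chrX:74481400-74481649 minus and Tex13b chrX:140813434-140813683 minus.
Rhox2h: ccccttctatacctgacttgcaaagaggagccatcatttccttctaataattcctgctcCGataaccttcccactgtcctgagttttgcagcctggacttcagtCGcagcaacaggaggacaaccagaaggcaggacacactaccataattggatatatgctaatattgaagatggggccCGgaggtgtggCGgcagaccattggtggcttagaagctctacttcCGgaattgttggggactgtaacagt
Rhox4g: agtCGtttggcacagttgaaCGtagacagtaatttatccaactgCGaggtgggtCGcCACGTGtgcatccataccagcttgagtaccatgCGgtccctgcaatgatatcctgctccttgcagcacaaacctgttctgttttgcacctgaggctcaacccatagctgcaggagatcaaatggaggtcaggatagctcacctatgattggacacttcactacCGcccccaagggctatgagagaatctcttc
Rhox13: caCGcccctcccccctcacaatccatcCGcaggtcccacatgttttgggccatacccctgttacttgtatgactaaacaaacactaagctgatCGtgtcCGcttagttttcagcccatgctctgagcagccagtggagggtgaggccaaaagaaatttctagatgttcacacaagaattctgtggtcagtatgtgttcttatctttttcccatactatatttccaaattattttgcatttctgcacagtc
Xlr4b: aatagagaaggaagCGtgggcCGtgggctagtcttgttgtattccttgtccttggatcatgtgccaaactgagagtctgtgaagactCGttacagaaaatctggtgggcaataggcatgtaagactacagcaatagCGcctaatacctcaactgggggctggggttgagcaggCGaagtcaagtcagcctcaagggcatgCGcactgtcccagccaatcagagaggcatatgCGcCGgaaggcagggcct
Magea8: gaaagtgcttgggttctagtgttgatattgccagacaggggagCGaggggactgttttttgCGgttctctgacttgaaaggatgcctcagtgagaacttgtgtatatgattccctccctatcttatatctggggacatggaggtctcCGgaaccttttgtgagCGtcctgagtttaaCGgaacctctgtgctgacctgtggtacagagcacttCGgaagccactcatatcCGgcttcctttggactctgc
Ctag2l1: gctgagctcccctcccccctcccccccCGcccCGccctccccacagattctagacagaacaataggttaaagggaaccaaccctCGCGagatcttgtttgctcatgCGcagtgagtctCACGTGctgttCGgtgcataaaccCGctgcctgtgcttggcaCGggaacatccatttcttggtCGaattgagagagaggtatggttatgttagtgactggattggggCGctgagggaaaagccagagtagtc
Tex13b: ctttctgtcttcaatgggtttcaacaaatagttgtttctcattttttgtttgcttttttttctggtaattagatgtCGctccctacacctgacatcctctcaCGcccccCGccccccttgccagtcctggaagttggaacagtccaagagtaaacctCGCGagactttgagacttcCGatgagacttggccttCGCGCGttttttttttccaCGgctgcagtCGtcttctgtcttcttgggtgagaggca
The Rhox2h, Rhox4g, Rhox13, Xlr4b, Magea8, Ctag2l1 and Tex13b windows held 5, 7, 4, 8, 7, 11 and 11 CpG sites. The E-box began 193 bases before the start in Rhox4g, 196 in Rhox4e, 132 in Ctag2l1 and 133 in Ctag2l2. The windows of Fthl17 members held a median of 7 CpG sites, those of Xlr 7, Rhox 5, Nlrp4 3 and Magea 0.

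The Rhox genes encode homeodomain transcription factors of the reproductive tract, placenta and germ line, and lie in 1 cluster on the X chromosome that is divided into alpha, beta and gamma parts. The calls fell unevenly over these parts. Of the 17 tested Rhox genes 6 were higher and 2 lower in 2i/LIF than with serum, and 6 were higher and 0 lower in KOSR/LIF. All 6 genes raised in 2i/LIF were in the alpha part, among 10 tested there, and both that were lower were among the 5 of the beta part. Neither of the 2 gamma genes was called in 2i/LIF, at 0 of 2 also by an unadjusted p under 0.05 in limma, while 1 was higher in KOSR/LIF.

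Within the alpha part the 3 Rhox2 copies changed most. Rhox2h had log2 levels of 2.97, 2.04, 2.97, 0.44 and 3.29 on the 2i/LIF arrays, 2.67, 2.44 and 1.53 on the KOSR/LIF arrays and -2.72, -2.56 and -1.75 on the serum/LIF arrays. The 8 arrays of both serum-free media lay above the 3 serum/LIF arrays, with 2i/LIF replicate 4 the lowest of the 8. The log2 change against serum/LIF was 4.68 ± 0.58 (SE; adjusted p = 0.000216) in 2i/LIF and 4.56 ± 0.65 (0.00489) in KOSR/LIF. Rhox2c had levels of 2.33, 1.48, 2.51, 0.05 and 2.88 on the 2i/LIF arrays, 2.26, 2.00 and -0.96 on the KOSR/LIF arrays and -4.80, -4.13 and -3.27 on the serum/LIF arrays, again with no overlap between either medium and serum/LIF. It rose by 5.91 ± 0.78 in 2i/LIF (adjusted p = 0.000336) and by 5.16 ± 0.88 in KOSR/LIF (0.00914), and Rhox2e rose by 4.22 ± 0.55 in 2i/LIF (0.000283) and 4.20 ± 0.61 in KOSR/LIF (0.00532). All of these calls held when any 1 array was left out. The 3 probes were designed for copies whose promoters differ at few bases, so the 3 results may not be separate observations. Each is nevertheless counted as 1 member in the counts given here.

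The Rhox4 copies, of which the Ehox gene first described in ES cells is a member, also rose, 3 of 3 tested in 2i/LIF and 2 of 3 in KOSR/LIF. Rhox4g had log2 levels of 0.33, -0.32, 0.00, -0.85 and -0.39 on the 2i/LIF arrays, -1.60, -1.17 and -2.49 on the KOSR/LIF arrays and -3.94, -4.37 and -3.21 on the serum/LIF arrays. The 3 media did not overlap, with 2i/LIF highest and serum/LIF lowest. Rhox4g rose by 3.59 ± 0.37 in 2i/LIF (adjusted p = 6.34e-05) and by 2.08 ± 0.42 in KOSR/LIF (0.018), and its 2i/LIF level was 1.51 ± 0.37 above that in KOSR/LIF (0.0179). Rhox4a rose by 3.59 ± 0.43 in 2i/LIF (0.000172), or by 3.50 with signals below the detection level raised to it, and by 2.55 ± 0.48 in KOSR/LIF (0.0139). Rhox4e rose by 2.49 ± 0.53 in 2i/LIF (0.00686), or by 2.18 with dim signals raised. Its KOSR/LIF change of 1.36 ± 0.60 did not pass (0.247), but with dim signals raised it was 1.66 and passed (0.0185). It also passed without the dim KOSR/LIF replicate 3 (0.0393), but not with scan day as a block (0.115) or normexp (0.146). The KOSR/LIF call of Rhox4g ended without serum/LIF replicate 1 (adjusted p = 0.0769) or 2 (0.0729) or KOSR/LIF replicate 1 (0.0602) or 2 (0.0642), and that of Rhox4a without serum/LIF replicate 1 (0.072) or 2 (0.0593) or KOSR/LIF replicate 2 (0.0522). The difference between 2i/LIF and KOSR/LIF in Rhox4g ended without the dim KOSR/LIF replicate 3 (0.0754).

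The Rhox3 copies, which alternate with Rhox2 and Rhox4 copies along the cluster, did not pass by the probes used. Rhox3f had log2 levels of -1.98, -2.40, -2.32, -2.63 and -1.65 on the 2i/LIF arrays, -1.66, -2.60 and -1.45 on the KOSR/LIF arrays and -3.08, -3.31 and -3.02 on the serum/LIF arrays. Its arrays in 2i/LIF and KOSR/LIF lay above those in serum/LIF, and the changes of 0.94 ± 0.30 in 2i/LIF (adjusted p = 0.0549) and 1.24 ± 0.34 in KOSR/LIF (0.0628) did not pass. A second, dimmer Rhox3f probe passed, at 2.19 ± 0.63 in 2i/LIF (0.0337) and 3.21 ± 0.70 in KOSR/LIF (0.0286), chosen for mention after its values were seen. Rhox3a and Rhox3h, whose promoter windows are identical, had log2 changes of 0.80 ± 0.57 (0.444) and 0.98 ± 0.39 (0.124) in 2i/LIF and of 0.73 ± 0.64 (0.572) and 1.34 ± 0.44 (0.117) in KOSR/LIF. Rhox1, at the start of the cluster, had a log2 change of 0.96 ± 0.33 in 2i/LIF (0.0729) and of 1.42 ± 0.37 in KOSR/LIF (0.0549). The median SD between replicates was 0.44 log2 units over all genes tested.

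**Figure D3:**
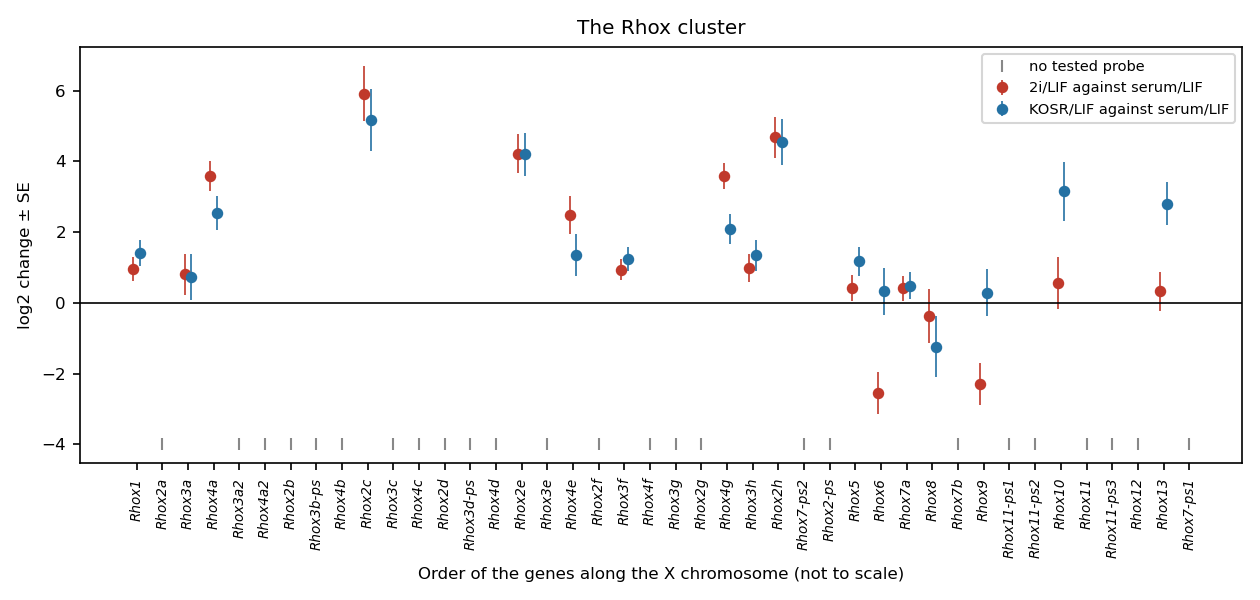
Log2 change of the tested Rhox genes against serum/LIF by their order along the X chromosome (not to scale), for 2i/LIF and KOSR/LIF with bars for 1 SE; grey ticks mark genes without a tested probe. Rhox2 copies lie highest in both media and Rhox4 copies next to them in 2i/LIF, while in KOSR/LIF Rhox10 and Rhox13 lie above the Rhox4 copies; Rhox6 and Rhox9 lie below 0 in 2i/LIF.

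Of the 5 beta genes 0 were higher in 2i/LIF than in serum/LIF by limma, also at an unadjusted p under 0.05, and 0 were called in KOSR/LIF, with 1 higher at an unadjusted p under 0.05. Rhox5, also called Pem and known from Sertoli cells, placenta and ES cells, had log2 levels of 6.72, 6.35, 6.32, 5.78 and 6.99 on the 2i/LIF arrays, 7.42, 7.71 and 6.41 on the KOSR/LIF arrays and 5.35, 6.41 and 6.27 on the serum/LIF arrays. The 2i/LIF arrays overlapped with those of both other media, and the lowest KOSR/LIF array lay barely above the highest serum/LIF array. Neither the 2i/LIF change of 0.42 ± 0.38 (adjusted p = 0.569) nor the KOSR/LIF change of 1.17 ± 0.42 (0.152) passed. Rhox8, expressed in Sertoli cells and the ovary, had a log2 change of -0.37 ± 0.76 in 2i/LIF (0.846) and -1.24 ± 0.85 in KOSR/LIF (0.477), and its 2 probes gave opposite signs in every comparison without a call. Rhox7a was not called by the brighter of its probes, at 0.41 ± 0.35 in 2i/LIF and 0.49 ± 0.39 in KOSR/LIF. Its second probe was called higher in KOSR/LIF at 2.63 ± 0.35 (0.00433) and not in 2i/LIF at 0.23 ± 0.31 (0.738).

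Rhox6 and Rhox9, known as the placenta-specific homeobox genes Psx1 and Psx2, were lower in 2i/LIF. Rhox9 had log2 levels of 0.16, -1.24, 0.27, 1.87 and 0.06 on the 2i/LIF arrays, 3.15, 3.45 and 1.85 on the KOSR/LIF arrays and 2.30, 2.11 and 3.17 on the serum/LIF arrays. All 5 2i/LIF arrays lay below the serum/LIF arrays, and the KOSR/LIF arrays overlapped with those of serum/LIF. Rhox9 fell by 2.30 ± 0.59 on the log2 scale in 2i/LIF (adjusted p = 0.0186) and had a log2 change of 0.29 ± 0.66 in KOSR/LIF (0.84), and 2i/LIF lay 2.59 ± 0.59 below KOSR/LIF (0.0119). Rhox6 had levels of -0.33, -2.41, -0.63, 0.89 and -0.56 on the 2i/LIF arrays, 2.53, 2.66 and 1.56 on the KOSR/LIF arrays and 1.68, 1.46 and 2.65 on the serum/LIF arrays. It showed the same separation and fell by 2.54 ± 0.60 in 2i/LIF (0.0113), with 0.32 ± 0.67 in KOSR/LIF (0.824) and a difference of -2.86 ± 0.60 between 2i/LIF and KOSR/LIF (0.00727). Without serum/LIF replicate 3 the 2i/LIF call ended for both, at adjusted p = 0.0617 for Rhox6 and 0.0899 for Rhox9, and without serum/LIF replicate 1 it ended for Rhox9 (0.0517). The Rhox9 difference from KOSR/LIF ended without KOSR/LIF replicate 1 (0.0503) or 2 (0.0551). Within scan day 1 the 2i/LIF changes were -1.44 (0.121) and -1.14 (0.221), neither past the threshold, and within scan day 3, with 1 serum/LIF array and no test read, they were -3.09 and -3.05. Trophoblast markers also differed between media: 1 of 20 tested was higher and 6 lower in 2i/LIF than with serum, and 0 higher and 3 lower in KOSR/LIF. Their summed linear level was 47.5 to 282 on 2i/LIF arrays, 49.9 to 121 on KOSR/LIF arrays and 189 to 413 on serum/LIF arrays, with Tpbpa above background on no array. Their part in the Rhox6 and Rhox9 result was not tested.

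In the gamma part Rhox13, expressed in male germ cells, was raised in KOSR/LIF. It had log2 levels of 1.82, 1.1, 0.44, -0.12 and 2.13 on the 2i/LIF arrays, 3.98, 4.25 and 2.41 on the KOSR/LIF arrays and 0.24, 0.73 and 1.25 on the serum/LIF arrays. The KOSR/LIF arrays lay above all others, and the 2i/LIF arrays spanned those of serum/LIF. Rhox13 rose by 2.81 ± 0.62 in KOSR/LIF (adjusted p = 0.0267), had a log2 change of 0.33 ± 0.55 in 2i/LIF (0.797) and was 2.48 ± 0.55 lower in 2i/LIF than in KOSR/LIF (0.0103). Rhox10, a spermatogonial homeobox gene, had levels of -1.06, -4.30, -2.11, -2.25 and -1.46 on the 2i/LIF arrays, 1.17, 0.70 and -0.81 on the KOSR/LIF arrays and -2.74, -4.06 and -1.58 on the serum/LIF arrays. Its KOSR/LIF arrays were also above all others, and 2i/LIF lay 2.58 ± 0.75 below KOSR/LIF (0.038). Its change of 3.15 ± 0.84 in KOSR/LIF against serum/LIF just missed the threshold (0.057). This change passed with dim signals raised (0.038), with normexp (0.00543) and with scan day as a block (0.00271). It did not pass without serum/LIF replicate 3 (0.055) or 2i/LIF replicate 4 (0.0731). The Rhox13 call in KOSR/LIF ended without serum/LIF replicate 1 (0.112) or 2 (0.0821) or KOSR/LIF replicate 1 (0.0879) or 2 (0.0929). The difference between 2i/LIF and KOSR/LIF ended for Rhox13 without KOSR/LIF replicate 2 (0.0512) and for Rhox10 without KOSR/LIF replicate 1 (0.137) or 2 (0.11), serum/LIF replicate 1 (0.0534) or 2i/LIF replicate 3 (0.0596) or 4 (0.0665). Rhox11 was above background on no array and Rhox12 and Rhox3e on 1 array each, so they were not tested.

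The Xlr genes, named for their X-linked lymphocyte-regulated founder and related to the synaptonemal complex protein Sycp3, rose in nearly all tested members in 2i/LIF. Of 8 tested members 7 were higher in 2i/LIF than in serum/LIF, with a median log2 change of 4.91 over the 8, and 4 were higher in KOSR/LIF, with a median of 3.92. Xlr5a was the member not called in 2i/LIF, at 2.14 ± 0.93 (adjusted p = 0.159). Xlr4b, imprinted in the mouse brain, had log2 levels of 2.83, 0.86, 2.10, -0.33 and 2.79 on the 2i/LIF arrays, 1.54, 1.24 and -0.37 on the KOSR/LIF arrays and -4.64, -4.53 and -1.50 on the serum/LIF arrays. Both serum-free media lay above serum/LIF, in which replicate 3 stood about 3 log2 units above replicates 1 and 2. Xlr4b rose by 5.21 ± 0.87 in 2i/LIF (0.00152) and by 4.36 ± 0.98 in KOSR/LIF (0.0287), and the 2i/LIF change was 5.06 with dim signals raised to the detection level.

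Xlr3b, also imprinted in the brain, showed a wide spread in serum/LIF. Its log2 levels were 4.15, 2.15, 3.74, 1.55 and 3.97 on the 2i/LIF arrays, 3.02, 2.48 and 0.82 on the KOSR/LIF arrays and -2.96, -2.60 and 1.40 on the serum/LIF arrays. Serum/LIF replicate 3 reached the range of the lowest arrays of both other media, so the groups just separated in 2i/LIF and overlapped in KOSR/LIF. The change was 4.50 ± 0.97 in 2i/LIF (adjusted p = 0.00721) and 3.49 ± 1.09 in KOSR/LIF (0.1). Xlr4a rose by 5.88 ± 1.08 in 2i/LIF (0.00258), Xlr5b by 5.57 ± 0.94 (0.00161), Xlr5c by 5.37 ± 1.09 (0.00489) and Xlr itself by 4.62 ± 0.68 (0.000635). With dim signals raised these 4 changes were 4.72, 4.95, 4.71 and 3.26, and that of Xlr3a was 2.35 in place of 3.66 ± 1.00.

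In KOSR/LIF Xlr4a rose by 4.91 ± 1.20 (adjusted p = 0.0416), Xlr5b by 5.58 ± 1.06 (0.0141) and Xlr5c by 4.89 ± 1.22 (0.0444). Each of these 3 calls and that of Xlr4b ended without serum/LIF replicate 1, at 0.165, 0.0601, 0.116 and 0.12, and without serum/LIF replicate 2, at 0.151, 0.0596, 0.164 and 0.112. Without KOSR/LIF replicate 1 they ended at 0.122, 0.0535, 0.135 and 0.0923. With dim signals raised the KOSR/LIF call of Xlr4a also ended (0.0513). Without KOSR/LIF replicate 2 the calls of Xlr4a (0.12), Xlr5c (0.114) and Xlr4b (0.0898) ended. Further, the call of Xlr4a ended without 2i/LIF replicate 2 (0.0514) or 3 (0.0553) and that of Xlr5c without serum/LIF replicate 3 (0.0538) or 2i/LIF replicate 3 (0.0557) or 5 (0.0515). In 2i/LIF the Xlr3a call ended without serum/LIF replicate 1 (0.134) or 2 (0.131) and without 2i/LIF replicate 1 (0.0529), 3 (0.0516) or 5 (0.0506). No Xlr gene was called between 2i/LIF and KOSR/LIF, with log2 differences of -0.20 to 2.04 and 1 of 8 higher at an unadjusted p under 0.05 in limma.

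**Figure D4:**
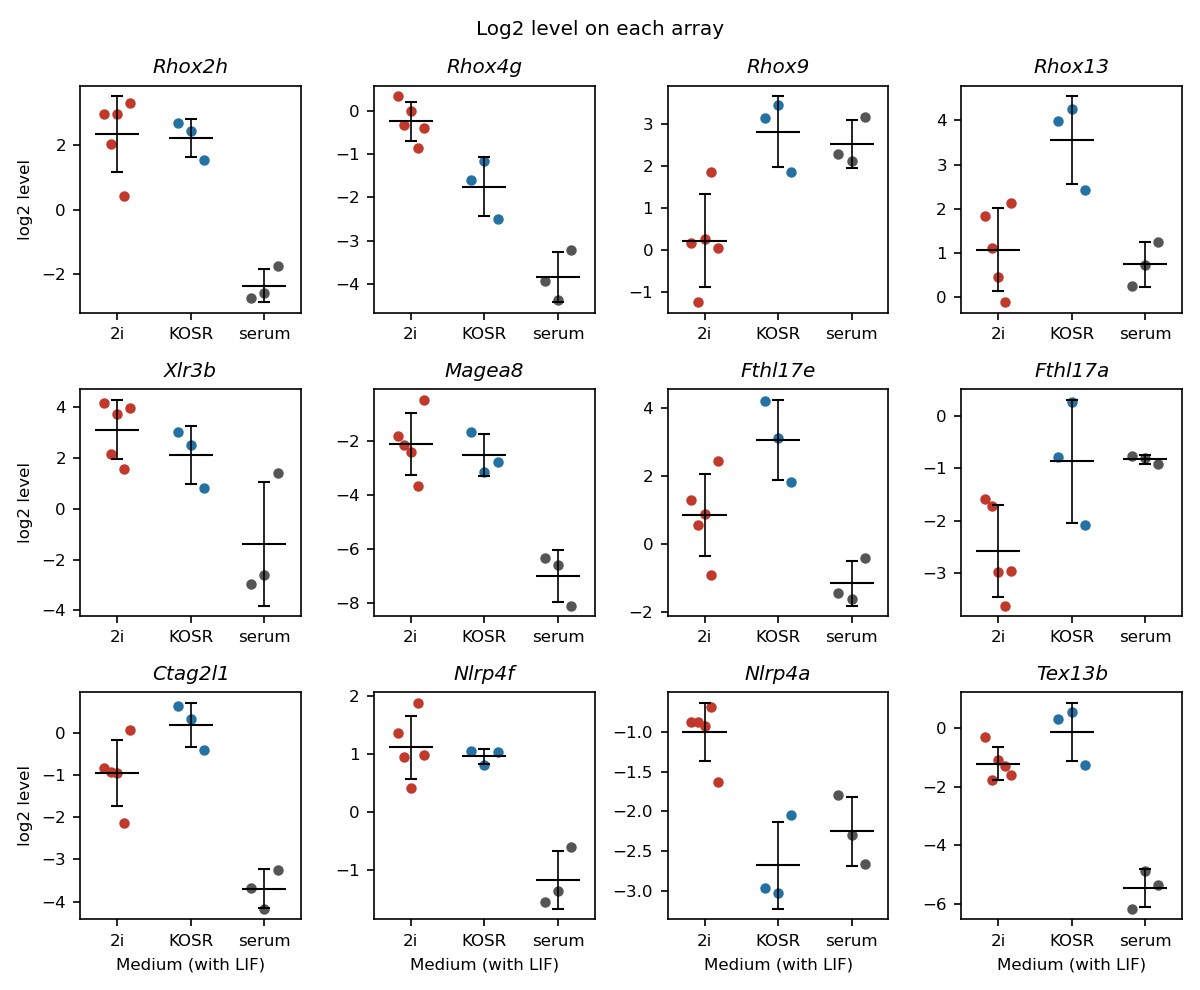
Log2 level on each array (dots) with the mean and SD of each medium, for 12 members, with 2i/LIF on the left, KOSR/LIF in the middle and serum/LIF on the right of each panel. Rhox2h, Magea8, Ctag2l1 and Tex13b are low in serum/LIF and high in both other media, Rhox9 and Fthl17a are lowest in 2i/LIF, Rhox13 and Fthl17e are highest in KOSR/LIF, and Nlrp4a is highest in 2i/LIF.

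The Magea genes encode type I melanoma antigens, cancer-testis proteins that bind RING ubiquitin ligases. Of 7 tested members 6 were higher in 2i/LIF than in serum/LIF and 4 in KOSR/LIF. Magea4, Magea5, Magea8 and Magea10 were well above background on no serum/LIF array, so for them the fold is a lower limit, set against the lowest detectable signal. Magea8 had log2 levels of -1.83, -2.13, -2.39, -3.67 and -0.46 on the 2i/LIF arrays, -1.65, -3.15 and -2.78 on the KOSR/LIF arrays and -6.31, -6.58 and -8.09 on the serum/LIF arrays. All arrays of both serum-free media lay above those of serum/LIF. It was at least 8.09-fold higher in 2i/LIF (adjusted p = 0.000323) and at least 6.0-fold higher in KOSR/LIF (0.00747). These p-values are of the signals as measured; with signals below the detection level raised to it the 2i/LIF call held (0.00814) and the KOSR/LIF call did not (0.0669). Magea4 had levels of -0.57, -2.03, -0.26, -2.19 and -1.79 on the 2i/LIF arrays, -2.73, -3.99 and -4.22 on the KOSR/LIF arrays and -6.14, -6.57 and -6.15 on the serum/LIF arrays, also without overlap. It was at least 12.5-fold higher in 2i/LIF (5e-05) and at least 2.57-fold higher in KOSR/LIF (0.0207), where 2 of 3 arrays measured it, and with dim signals raised the 2i/LIF call held (0.000863) and the KOSR/LIF call did not (0.119).

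Magea5 was at least 3.74-fold higher in 2i/LIF (adjusted p = 0.0128) and Magea10 at least 1.77-fold (0.0116), and neither passed in KOSR/LIF (0.0727 and 0.0588). With dim signals raised Magea5 stayed past the threshold in 2i/LIF (0.044) and Magea10 did not (0.106). Magea1, the member with the highest mean signal in the family, had log2 levels of -1.0, -1.14, -1.28, -3.42 and -0.23 on the 2i/LIF arrays, -0.72, -2.26 and -3.17 on the KOSR/LIF arrays and -5.30, -5.46 and -4.85 on the serum/LIF arrays. The serum/LIF arrays were the lowest of all 11. Magea1 rose by 3.79 ± 0.67 in 2i/LIF (0.00203) and 3.16 ± 0.74 in KOSR/LIF (0.0352), and Magea3 by 3.10 ± 0.59 (0.0035) and 2.96 ± 0.67 (0.029). With dim signals raised, the 2i/LIF changes of Magea1 and Magea3 were 3.16 and 2.07, and the KOSR/LIF call of Magea3 ended (0.0514). Magea6 was not called, at 0.53 ± 0.63 in 2i/LIF (0.702) and 0.69 ± 0.71 in KOSR/LIF (0.639).

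The 2i/LIF calls of Magea5 and Magea10 ended without serum/LIF replicate 3, at adjusted p = 0.0679 and 0.066. The KOSR/LIF calls of Magea1, Magea3 and Magea4 each depended on single arrays. That of Magea1 ended without serum/LIF replicates 1 (0.116), 2 (0.117) or 3 (0.0752) or KOSR/LIF replicates 1 (0.112) or 2 (0.0824). Magea3 lost its call without serum/LIF replicates 1 (0.0768) or 2 (0.106) or KOSR/LIF replicates 1 (0.098) or 3 (0.0542), and Magea4 without any 1 of the 3 serum/LIF arrays (0.0723, 0.077 and 0.0551) or KOSR/LIF replicate 1 (0.0726).

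The 2 tested Ctag2 genes and the 1 tested Tex13 gene rose in both media. Ctag2l1 and Ctag2l2 are mouse relatives of the human cancer-testis antigen genes CTAG1 and CTAG2. Ctag2l1 had log2 levels of -0.84, -0.94, -0.96, -2.13 and 0.07 on the 2i/LIF arrays, 0.64, 0.32 and -0.40 on the KOSR/LIF arrays and -3.67, -4.17 and -3.25 on the serum/LIF arrays. No array of 2i/LIF or KOSR/LIF overlapped with serum/LIF, and the gene rose by 2.74 ± 0.43 in 2i/LIF (adjusted p = 0.00104) and 3.88 ± 0.48 in KOSR/LIF (0.00392). Ctag2l2 rose by 4.15 ± 0.77 (0.00283) and 5.07 ± 0.86 (0.00914), or by 2.82 and 3.74 with dim signals raised. Tex13b, a testis-expressed gene of spermatogonia, had levels of -0.30, -1.77, -1.11, -1.29 and -1.60 on the 2i/LIF arrays, 0.32, 0.56 and -1.26 on the KOSR/LIF arrays and -6.17, -4.88 and -5.35 on the serum/LIF arrays. Its 8 arrays in serum-free media lay above the 3 of serum/LIF by 3 log2 units or more, and it rose by 4.26 ± 0.47 in 2i/LIF (9.97e-05) and 5.34 ± 0.52 in KOSR/LIF (0.00111), or by 3.53 and 4.61 with dim signals raised. None of these 6 calls was lost when any 1 array was left out. Ctag2, Tex13a and Tex13c1 were above background on no array.

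The Fthl17 genes, ferritin heavy chain-like genes of spermatogonia and the early embryo, differed from one another. Of 3 tested, 2 rose in KOSR/LIF, and in 2i/LIF 0 rose by limma, or 2 at an unadjusted p under 0.05, and 1 fell. Fthl17e had log2 levels of 1.28, 0.55, 0.89, -0.91 and 2.45 on the 2i/LIF arrays, 4.22, 3.13 and 1.84 on the KOSR/LIF arrays and -1.46, -1.61 and -0.41 on the serum/LIF arrays. All KOSR/LIF arrays lay above serum/LIF, and 1 of the 5 2i/LIF arrays, replicate 4, lay within the serum/LIF range. Fthl17e rose by 4.22 ± 0.77 in KOSR/LIF (adjusted p = 0.0121), while its 2i/LIF change of 2.01 ± 0.69 did not pass (0.0699). That 2i/LIF change passed with scan day as a block (0.0342) and without 2i/LIF replicate 4 (0.0165), but not with normexp (0.0895). Fthl17f rose by 3.12 ± 0.49 in KOSR/LIF (0.00681), had a log2 change of 1.27 ± 0.44 in 2i/LIF without passing (0.0753), and lay 1.85 ± 0.44 lower in 2i/LIF than in KOSR/LIF (0.0149). Its 2i/LIF change against serum/LIF passed without 2i/LIF replicate 4 (0.00718), but not with scan day as a block (0.0993) or normexp (0.265). Fthl17a had levels of -1.59, -1.72, -2.99, -3.63 and -2.96 on the 2i/LIF arrays, -0.79, 0.28 and -2.08 on the KOSR/LIF arrays and -0.76, -0.79 and -0.92 on the serum/LIF arrays. Its 2i/LIF arrays lay below those of serum/LIF and its KOSR/LIF arrays on both sides of them. It fell by 1.76 ± 0.55 in 2i/LIF (0.0493) and had a log2 change of -0.04 ± 0.62 in KOSR/LIF (0.978).

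The Fthl17a call lay closest to the threshold of the 29 calls between 2i/LIF and serum/LIF. It ended without any of the 3 serum/LIF arrays (adjusted p = 0.145, 0.133 and 0.113), without 2i/LIF replicates 3 (0.0942), 4 (0.0952) or 5 (0.0907) and without KOSR/LIF replicate 1 (0.0645). The KOSR/LIF call of Fthl17e ended without serum/LIF replicates 1 (0.0561) or 2 (0.0503), and the Fthl17f difference between 2i/LIF and KOSR/LIF ended without KOSR/LIF replicate 1 (0.0737).

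The Nlrp4 genes encode NOD-like receptors of the oocyte and preimplantation embryo and, unlike the others, are autosomal, on chromosome 7 apart from Nlrp4f on chromosome 13 and Nlrp4g, not tested, on chromosome 9. All 4 tested members were higher in 2i/LIF than in serum/LIF and 2 of them in KOSR/LIF. Nlrp4f had log2 levels of 1.37, 0.95, 0.42, 1.89 and 0.99 on the 2i/LIF arrays, 1.05, 0.81 and 1.04 on the KOSR/LIF arrays and -1.55, -1.37 and -0.61 on the serum/LIF arrays. Both serum-free media lay above serum/LIF, and the gene rose by 2.30 ± 0.33 in 2i/LIF (adjusted p = 0.000528) and 2.14 ± 0.37 in KOSR/LIF (0.00942). Nlrp4c rose by 3.60 ± 0.63 (0.00203) and 4.25 ± 0.71 (0.00833). Nlrp4a had levels of -0.88, -0.87, -0.93, -0.69 and -1.63 on the 2i/LIF arrays, -2.96, -3.02 and -2.05 on the KOSR/LIF arrays and -1.79, -2.30 and -2.66 on the serum/LIF arrays. Its 2i/LIF arrays lay above all arrays of both other media, and it rose by 1.25 ± 0.31 against serum/LIF (0.0161) and by 1.67 ± 0.31 against KOSR/LIF (0.00383), while the log2 change in KOSR/LIF was -0.43 ± 0.35 against serum/LIF (0.546). Nlrp4e rose by 1.58 ± 0.37 in 2i/LIF (0.0117) and had a log2 change of 0.40 ± 0.42 in KOSR/LIF (0.643). Without serum/LIF replicate 2 the 2i/LIF calls of Nlrp4a (0.0615) and Nlrp4e (0.0555) ended, without serum/LIF replicate 3 that of Nlrp4a (0.0854), and without serum/LIF replicate 1 the KOSR/LIF call of Nlrp4f (0.0502).

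Set against each other, 2i/LIF and KOSR/LIF differed in 8 of the 42 members, 3 higher and 5 lower in 2i/LIF, where 14.7% of all genes were called, 5.95% higher and 8.71% lower. All 2i/LIF arrays lay above all KOSR/LIF arrays for 4 members and below them for 4, against 9.04% and 10.6% of all genes. The members' shares were thus near those of all genes. The 3 higher in 2i/LIF were Rhox4g, Nlrp4a and Magea4, the last by 2.28 ± 0.49 (adjusted p = 0.00851) or 1.70 with dim signals raised, where it no longer passed (0.069). The 5 lower were Rhox6, Rhox9, Rhox10, Rhox13 and Fthl17f. Over the 42 members the median log2 difference was 0.056, with 23 positive and 19 negative, but with scan day as a block it was -0.33, with 12 positive, and within scan day 1 it was -0.85, with 10 positive. Within scan day 1, with 2 arrays per medium, 2 members were higher and 8 lower in 2i/LIF than in KOSR/LIF. Of all 16279 genes, 2072 were called there in either direction. Over all arrays Fthl17e, at -2.21 ± 0.69 (0.0527), and Fthl17a, at -1.72 ± 0.55 (0.0593), did not pass.

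Each member's calls against serum/LIF can be read together with this direct comparison. In both 2i/LIF and KOSR/LIF 18 members were called higher, and of these Rhox4g and Magea4 also differed between the 2 media. Called higher in 2i/LIF alone were 8, of which Nlrp4a also differed from KOSR/LIF, and called higher in KOSR/LIF alone were 3, of which Rhox13 and Fthl17f were lower in 2i/LIF than in KOSR/LIF. For Magea5, Magea10, Nlrp4e, Rhox4e, Xlr, Xlr3a, Xlr3b and Fthl17e a difference between the media was therefore not shown. Of the 3 members lower in 2i/LIF than with serum, Rhox6 and Rhox9 were also lower than in KOSR/LIF, and Fthl17a was not. By the probe used, Magea6, Rhox1, Rhox3a, Rhox3f, Rhox3h, Rhox5, Rhox7a, Rhox8, Rhox10 and Xlr5a were called against serum/LIF in neither medium.

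Arrays of 1 medium differed across the families at once. The 2i/LIF replicate 4 array was the lowest of its medium for 26 of 42 members, with a median of 1.09 log2 units below the 2i/LIF mean, and replicates 5 and 1 were the highest for 18 and 14. The dim KOSR/LIF replicate 3 was the lowest of its medium for 30 members and KOSR/LIF replicate 1 the highest for 29. The serum/LIF replicate 3, an E14 array and the only serum/LIF array of scan day 3, was the highest of its medium for 29, by a median of 0.54 above the mean. Without these 3 arrays 28 members were higher and 2 lower in 2i/LIF than with serum, 22 higher and 0 lower in KOSR/LIF than in serum/LIF, and 4 higher and 7 lower in 2i/LIF than in KOSR/LIF.

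The X-linked genes outside the families served as a comparison. Of 583 tested X-linked genes outside the families 8.58% were higher and 15.3% lower in 2i/LIF than with serum, against 22 higher and 3 lower of 38 X-linked members. In KOSR/LIF 4.80% of those genes were higher and 5.49% lower, against 19 higher and 0 lower of the 38 members. Other X-linked testis and germline genes, on a list of 26 tested genes, were higher for 5 and lower for 0 in 2i/LIF, with a median log2 change of 0.36, and higher for 4 and lower for 0 in KOSR/LIF, with a median of 1.20. Among them Slx, a multicopy spermatid gene, rose by 3.33 ± 0.69 in 2i/LIF (adjusted p = 0.00547) and Nxf3, an RNA export factor of the testis, rose by 3.49 ± 0.75 in KOSR/LIF (0.0251), a call that ended without serum/LIF replicates 1 (0.102) or 2 (0.084) or any 1 of the KOSR/LIF arrays (0.0761, 0.0522 and 0.0677). Among 19 other oocyte and Nlrp genes tested, the calls against serum/LIF were 2 higher and 0 lower in 2i/LIF and 1 higher and 0 lower in KOSR/LIF. Their median log2 changes were 0.06 and 0.40. Among 7 type II Mage genes and ferritin relatives the calls were 0 higher and 2 lower in 2i/LIF and 0 higher and 1 lower in KOSR/LIF. Of all genes 6.74% were higher and 9.98% lower in 2i/LIF, and 2.37% higher and 2.21% lower in KOSR/LIF.

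Germline genes outside the families that are known to be silenced by DNA methylation, most of them single-copy, were set beside the families. Of 31 tested, 11 were higher and 6 lower in 2i/LIF than with serum, with a median log2 change of 0.83, and 16 were higher and 0 lower in KOSR/LIF, with a median of 1.66. Between 2i/LIF and KOSR/LIF 1 was higher and 15 lower in 2i/LIF, where the families had 3 and 5 of 42. Mael, a piRNA pathway gene, differed in sign between the media, at -2.25 ± 0.32 in 2i/LIF (adjusted p = 0.000505) and 1.82 ± 0.36 in KOSR/LIF (0.0163), the KOSR/LIF call ending without serum/LIF replicate 2 (0.0651) or KOSR/LIF replicate 1 (0.0616). Tuba3a, a testis tubulin, rose by 4.03 ± 0.61 in 2i/LIF (0.000772) and by 3.72 ± 0.68 in KOSR/LIF (0.0123), the KOSR/LIF call ending without serum/LIF replicate 1 (0.0614) or 2 (0.0526).

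The enzymes that write and copy DNA methylation differed in their calls. Dnmt3l, the cofactor of de novo methylation, had log2 levels of 2.54, -0.43, 2.63, 2.50 and 2.05 on the 2i/LIF arrays, 6.43, 5.29 and 5.38 on the KOSR/LIF arrays and 6.13, 6.69 and 5.71 on the serum/LIF arrays. The 2i/LIF arrays lay below all others, and Dnmt3l fell by 4.32 ± 0.63 in 2i/LIF (adjusted p = 0.000635), while the log2 change in KOSR/LIF was -0.48 ± 0.71 (0.752). Dnmt3b fell by 1.88 ± 0.48 in 2i/LIF (0.0179), a call that ended without serum/LIF replicate 1 (0.0886) or 2 (0.0683), and had a log2 change of -1.21 ± 0.54 in KOSR/LIF (0.253). Dnmt3a was not called against serum/LIF, at -0.63 ± 0.32 in 2i/LIF and 0.69 ± 0.36 in KOSR/LIF. Dnmt1, which copies methylation, had a log2 change of 0.34 ± 0.32 in 2i/LIF (0.594) and -0.07 ± 0.36 in KOSR/LIF (0.938), and its partner Uhrf1 rose by 1.14 ± 0.20 in 2i/LIF (0.00227) and had a log2 change of 0.38 ± 0.23 in KOSR/LIF (0.403). Prdm14, a repressor of Dnmt3b in ES cells, rose by 1.46 ± 0.26 in 2i/LIF (0.00233) and had a log2 change of -0.24 ± 0.29 in KOSR/LIF (0.693).

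None of the other repressors named above was called against serum/LIF. Pcgf6 had a log2 change of -0.05 ± 0.21 in 2i/LIF (adjusted p = 0.943) and -0.52 ± 0.24 in KOSR/LIF (0.264), Mga of 0.03 ± 0.34 (0.979) and -0.70 ± 0.38 (0.361), E2f6 of -0.25 ± 0.27 (0.657) and -0.08 ± 0.30 (0.912), and Setdb1 of 0.60 ± 0.25 (0.143) and -0.03 ± 0.28 (0.966). Of 32 repressor genes tested 1 was higher and 2 lower in 2i/LIF than with serum, and 0 were called in KOSR/LIF by limma, where 1 was higher and 4 lower at an unadjusted p under 0.05. Whether RNA levels of these factors bear on the families was not tested, and no methylation was measured here.

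**Figure D5:**
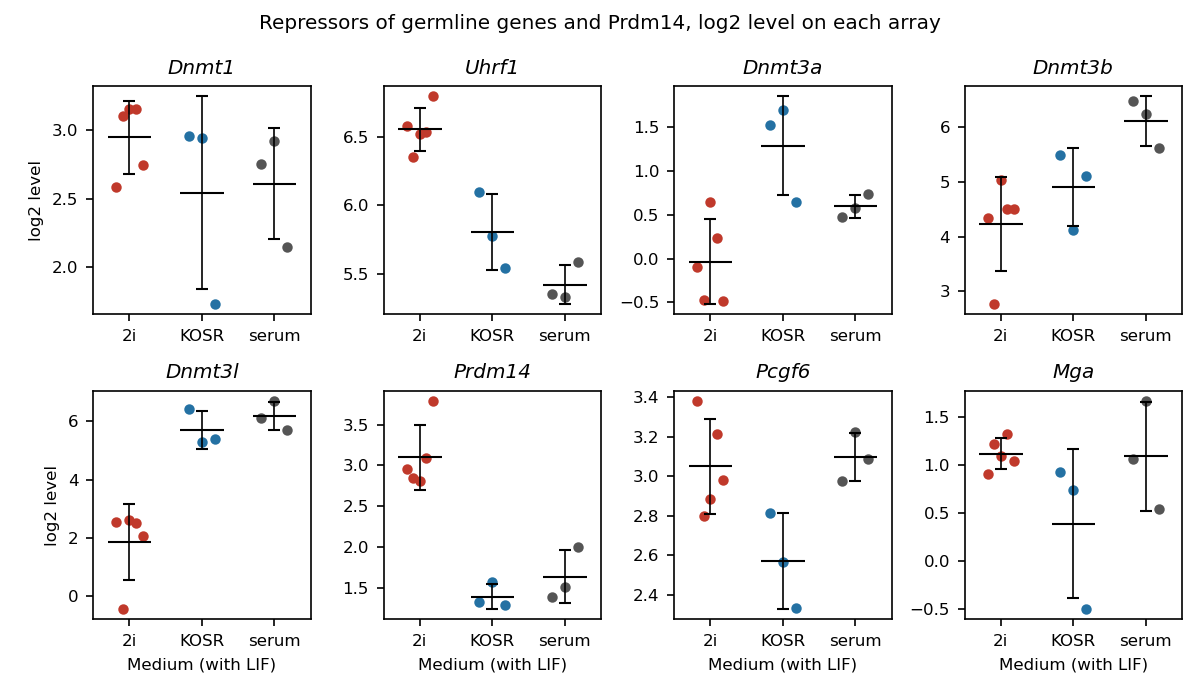
Log2 level on each array (dots) with the mean and SD of each medium for Dnmt1, Uhrf1, Dnmt3a, Dnmt3b, Dnmt3l, Prdm14, Pcgf6 and Mga, with 2i/LIF on the left, KOSR/LIF in the middle and serum/LIF on the right of each panel. Dnmt3l is low in 2i/LIF and alike in KOSR/LIF and serum/LIF, Prdm14 and Uhrf1 are highest in 2i/LIF, and Pcgf6 and Mga overlap between media.

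Markers of other cells were read on the same arrays, since cells of another type could carry these transcripts. Of 16 germ cell markers tested 4 were higher and 4 lower in 2i/LIF than with serum and 5 higher and 2 lower in KOSR/LIF, and their summed linear level was 63.2 to 70.5 on 2i/LIF arrays, 106 to 185 on KOSR/LIF arrays and 44.7 to 72.2 on serum/LIF arrays, with Nanos2 above background on no array. Of 13 markers of 2-cell-like cells 1 was higher and 1 lower in either medium, and at an unadjusted p under 0.05 in limma 2 were higher and 1 lower in 2i/LIF and 8 higher and 1 lower in KOSR/LIF. Their median log2 change was 0.91 in 2i/LIF, with 11 positive, and 1.95 in KOSR/LIF, with 10 positive. They had a summed level of 182 to 233 on 2i/LIF arrays, 191 to 247 on KOSR/LIF arrays and 195 to 224 on serum/LIF arrays, and Tdpoz1 above background on no array. Primitive endoderm markers were lower for 6 of 16 in 2i/LIF and higher for 1 in KOSR/LIF, with a summed level of 142 to 206 on 2i/LIF arrays, 94.4 to 262 on KOSR/LIF arrays and 174 to 225 on serum/LIF arrays, and Ttr above background on no array. Fibroblast markers were lower for 7 of 14 in 2i/LIF and higher for 1 in KOSR/LIF, with a summed level of 2.74 to 4.39 on 2i/LIF arrays, 16.0 to 22.9 on KOSR/LIF arrays and 8.15 to 23.2 on serum/LIF arrays, and Fap above background on no array. The germ cell list shares Ddx4, Dazl, Piwil2, Mael, Stra8 and Sycp3 with the germline genes silenced by DNA methylation given above. It also holds Prdm14, named above as a repressor of Dnmt3b in ES cells. Zbtb16 is on the repressor list too, and Tfap2c is among the trophoblast markers. The counts of these lists are therefore not independent. The part of these cells in the families' levels was not tested.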

How the data were processed

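The 11 arrays of ES cell RNA were all used, in the groups given by the labels. Per the file headers, the authors' Agilent Feature Extraction 11.0.1.1 output holds 1-colour spot intensity, background-subtracted and detrended, of an array designed on mm9, and per the labels Cy3-labelled RNA was hybridised. The authors' deposited value table holds a positive linear intensity per probe, with column medians of 46.5 to 47.8 and nearly the same quartiles in every column; how it was scaled was not stated by any source used, and its log2 served as an alternative. From the processed intensity, log2 minus the array's 75th percentile was computed, control and outlier spots were left out, and spots of a probe were averaged. A GRCm38.p6 gene table gave symbols to 27642 of the 29109 probes carrying RefSeq accessions, for 20964 genes. A probe was kept if the scanner software rated it well above background on 3 or more of the 11 arrays. Each gene was represented by its brightest kept probe on average, and a gene without a kept probe was not tested.

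All arrays entered 1 fit by limma 3.58.1 (lmFit and eBayes, R 4.3.3), with two-sided p-values adjusted by Benjamini-Hochberg across every gene tested and called at 0.05. Residual degrees of freedom were 8, with 3.52 added by the prior. The number of arrays limits the precision, and the p-values measure the spread between cultures of 3 lines. Arrays of the same line within 2i/LIF were treated as independent in this fit. Where no array of a medium measured a probe well above background, the fold is a bound against the lowest signal well above background. The fit was tested on simulated data with normal noise. A log2 change of 1 was called for 18% of the changed genes in 2i/LIF and 12% in KOSR/LIF against serum/LIF. A change of 2 was called for 76% and 70%, and a change of 3 for 98% in both. A member not called at a change near 1 may therefore still differ. In each family the member with the highest mean level and up to 4 members with the largest called change per comparison were named, and any tested member could be. The members and lists were chosen with earlier results of these data known. Alternatives were normexp (on median signals, as the mean signal was not used here), quantile scaling, no filter, the deposited table, cell line, scan day, slide and replicate as blocks, and leaving out arrays. Promoter sequences are RefSeq's. Python 3.11.15, pandas 2.3.3 and Biopython 1.88 were used.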

Additional observations from a re-analysis of the deposited data

Results flagged for a closer look

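Each of the 42 tested members was examined for an array standing apart among the 5 of 2i/LIF, where chance alone singles out about 1 in 20 groups of arrays, so about 2.1 of 42. A single case was found. Nlrp4a on 2i/LIF replicate 5 had a log2 level of -1.63, the nearest of the other 4 arrays was at -0.93, and this gap was 0.75 of the whole range. The cause was not tested.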

How the results depend on the processing

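No called member changed sign against the value reported, under any alternative run. Over all genes, calls between 2i/LIF and serum/LIF numbered 2723, against 1753 with normexp and 1113 within scan day 3 (1 serum/LIF array, so not a usable test), and 1828 to 3215 with any 1 array left out. Calls between KOSR/LIF and serum/LIF numbered 744, against 376 with normexp, 451 with no filter on dim probes, 1662 with the slide as a random block and 362 without the 2i/LIF replicate 4, KOSR/LIF replicate 3 and serum/LIF replicate 3, a set chosen after seeing the data, and 221 to 928 with any 1 array left out. Calls between 2i/LIF and KOSR/LIF numbered 2387, against 1515 with normexp, 1408 with the replicate block and 1517 without those 3 arrays, and 1732 to 2617 with any 1 array left out.

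Among the members, 3 fell in 2i/LIF against serum/LIF, against 1 within scan day 1 and 1 without 2i/LIF replicates 1 and 5, and 0 to 3 with any 1 array left out. Members higher in KOSR/LIF than in serum/LIF numbered 21, against 32 with the slide as a random block, and 9 to 23 with any 1 array left out. Between 2i/LIF and KOSR/LIF 3 were higher, against 0 with normexp, 5 with the cell line by source name as a block and 5 with the slide as a random block, and 2 to 4 with any 1 array left out. There 5 were lower, against 9 with scan day as a block, 8 within scan day 1 and 10 with the slide as a random block, and 2 to 8 with any 1 array left out. Of the calls against serum/LIF, normexp kept 23 of 29 in 2i/LIF and 13 of 21 in KOSR/LIF, and the authors' deposited value table kept 28 of 29 and 21 of 21. Family medians against serum/LIF kept their sign under all settings except that of Tex13 in 2i/LIF, which was -0.27 over 3 members with no filter on dim probes, which adds 2 members that were well above background on no array. The cause of these shifts was not tested.

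By the titles replicates 1 to 3 of 2i/LIF and serum/LIF share a line number by number, by the source names they do not, and KOSR/LIF shares a line with the same-numbered serum/LIF array for replicate 2 alone. Deviations of same-numbered arrays correlated by -0.20 to 0.18, so whether the numbers pair the arrays was not settled. With the replicate block 24 members rose and 2 fell in 2i/LIF against serum/LIF (1930 genes called; the calls of Fthl17a, Nlrp4a, Xlr3a and Rhox4e ended), 19 and 0 in KOSR/LIF (503; Xlr4a, Xlr4b and Rhox4g ended), and 2 and 4 between 2i/LIF and KOSR/LIF (Rhox4g and Rhox10 ended). With the cell line by title as a block 27 rose and 2 fell in 2i/LIF and 21 and 0 in KOSR/LIF against serum/LIF. Precision is limited by dim signals: 26 of the 42 tested members were not well above background on every array, and the dim KOSR/LIF replicate 3 measured the fewest probes.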

Other observations

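The E14 arrays stood high across the families in both media where the labels agree on the line. In serum/LIF the E14 array, replicate 3, was the highest of its medium for 29 of 42 members, and in KOSR/LIF the E14 array, replicate 1, was also the highest for 29, although the deposited value table places the signals of KOSR/LIF replicates 1 and 2 the other way round. In 2i/LIF the source names give E14 to replicate 1, the highest of its medium for 14 members, and the titles give it to replicate 3, the highest for 3. In serum/LIF the gap was wide in the Xlr family, where Xlr3b was at 1.40 on the E14 array and at -2.96 and -2.60 on the others, and Xlr4a at -1.74 and at -6.26 and -6.10. Xlr4a was well above background on only 1 serum/LIF array, so the size of its gap is uncertain. The serum/LIF E14 array was also the only serum/LIF array of scan day 3. Its 75th percentile was 495 intensity units, against 179 and 227 on the others. In KOSR/LIF the ranking included replicate 3, which was dim. Line, scan day and brightness therefore cannot be told apart in serum/LIF. With 1 array per line in serum/LIF and KOSR/LIF a difference between lines was not tested.

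Both probes of Rhox7a were measured, and they gave different results. The brighter was not called in any comparison, while the second was higher in KOSR/LIF than in serum/LIF by 2.63 ± 0.35 on the log2 scale and lower in 2i/LIF than in KOSR/LIF by 2.40 ± 0.31. Rhox10 and Rhox13 were also lower in 2i/LIF than in KOSR/LIF. Which copy or transcript the second probe measures was not tested, since probe sequences were not used here.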
